A study of Homo sapiens with 10 samples.

Results

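The 39 genes of glycolysis and of the response to low oxygen described here were chosen by symbol, out of 60168 genes measured by mRNA sequencing of MCF10A cells. They comprise 24 genes of glucose transport, glycolysis and pyruvate or lactate handling, and 15 genes of oxygen sensing and hypoxia response. MCF10A is a non-tumorigenic human mammary epithelial line. All cells had been transduced with a lentiviral vector and selected with an antibiotic. MCF10A-control carried an empty vector, MCF10A-TRAM2 a vector for TRAM2, a protein associated with the translocon of the endoplasmic reticulum, and MCF10A-YAP a vector for YAP, the transcriptional co-activator restrained by the Hippo pathway, in the activated form that the study's methods call YAP5SA. According to those methods, TRAM2 was cloned into a pCDH vector marked Puro and YAP5SA into a pLenti vector marked BlastR. They do not state the backbone of the empty vector. Backbone and selection drug therefore cannot be told apart from the gene carried. No culture was placed under low oxygen according to the labels or the study's methods, so hypoxia genes are described here at ordinary culture conditions. Members are transcripts only, and neither glucose use, lactate nor oxygen was measured in these files.

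Although the design text speaks of 3 biological replicates per condition, the labels list 10 libraries, lettered A to D for MCF10A-control, A to D for MCF10A-TRAM2 and A and B for MCF10A-YAP. Over genes with whole-number counts, control A and C differed by about the sampling noise (chi-square per degree of freedom 1.00, p = 0.47), as did control B and D (0.999, p = 0.5). Over all genes averaging 50 counts or more the values were above it, at 1.23 and 1.22, against 1.42 to 1.49 in the other control pairs. Each pair, A with C and B with D, was counted as 1 sample. The comparisons therefore rest on 2 control, 4 MCF10A-TRAM2 and 2 MCF10A-YAP samples. Estimated counts per sample ran from 12476913 to 21542139. Nothing in the labels places these samples in separate cultures, so p-values reflect only how these samples vary, which may be technical variation. MCF10A-TRAM2 B differed more from its group than the other 3 samples did, at a chi-square per degree of freedom of 5.5 to 6.12 in its pairs against 2.07 to 4.07 in the others. Values are given with and without it where it decides a result. YAP1 stood at 187 CPM in both control samples and at 337 and 342 CPM in MCF10A-YAP. TRAM2 stood at 28.4 and 28.9 CPM in control, at 390, 611, 250 and 460 CPM in MCF10A-TRAM2 A to D, and at 242 and 247 CPM in MCF10A-YAP. CPM here is the estimated count of a gene per 1000000 counts of its sample after TMM scaling. The summed level of 10 markers of basal-like mammary epithelium was 6080 and 6170 CPM in control, 5510 to 6070 CPM in MCF10A-TRAM2, and 4060 and 4110 CPM in MCF10A-YAP. Markers of fibroblasts summed to 1.55 to 4.25 CPM and those of erythroid cells to at most 0.505 CPM in every sample. Those of endothelial cells summed to 10.6 and 9.70 CPM in control, up to 17.5 CPM in MCF10A-TRAM2 (lowest 12 CPM) and 2.94 CPM in both MCF10A-YAP samples. Those of leukocytes summed to 40.3 and 40.7 CPM in control, 36.3 to 47.8 CPM in MCF10A-TRAM2, and 55.3 and 49.5 CPM in MCF10A-YAP, with PTPRC, their defining marker, at 0 to 3 counts in every sample. The part of these markers in the results was not tested.

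Glycolysis splits glucose into pyruvate in the cytosol, with hexokinase, phosphofructokinase and pyruvate kinase as the steps at which it is chiefly regulated. Lactate dehydrogenase turns pyruvate into lactate, which leaves the cell through monocarboxylate transporters. When oxygen falls, the prolyl hydroxylases encoded by EGLN1 and EGLN3 stop marking the HIF alpha subunits (HIF1A and EPAS1) for destruction. HIF then binds a short DNA element with the core ACGTG or GCGTG and raises genes of glucose uptake, glycolysis, angiogenesis, pH control and mitophagy. HIF alpha is controlled mainly as a protein, which mRNA sequencing does not measure.

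Because many of the 39 genes are known HIF targets, the bases before their start sites were searched for that core. RefSeq promoters of GRCh38.p14 were matched for 34 of the 39 genes, with 62 windows of 250 bases before a start. The letters ACGTG or GCGTG, on either strand, occurred in 38 of the 62 windows, or 61.3%, against 43.2% of all 35116 windows of the table. By group, 54.2% of the 48 windows of glycolysis members and 85.7% of the 14 windows of hypoxia members held it. The letters CACGTG, which contain the core on both strands and are also an E-box, occurred in 12.9% of the members' windows and 6.34% of all windows. The letters CATTCC, the core bound by the TEAD partners of YAP, on either strand, occurred in 4 of the members' windows, or 6.45%, against 11.9% of all windows. By gene they occurred in 4 of the 34 matched members, or 11.8%, against 14.3% of all genes of the table. These matches describe letters only. The genes of the table include those not expressed here, and the comparison was not matched for expression or base composition. Shown here are 60 bases around the HIF core nearest to a start for the members called in MCF10A-YAP that hold one, first those that were higher and then those that were lower, because both sets carry it. Capitals mark every ACGTG or GCGTG on either strand.
ADM (chr11:10304942-10305001, plus strand, 131 to 72 bases before the start): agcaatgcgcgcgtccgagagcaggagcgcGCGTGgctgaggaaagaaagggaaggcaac
BNIP3 (chr10:131981998-131982057, minus strand, 134 to 75 bases before the start): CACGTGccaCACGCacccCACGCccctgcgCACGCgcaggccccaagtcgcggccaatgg
ENO2 (chr12:6914432-6914491, plus strand, 148 to 89 bases before the start): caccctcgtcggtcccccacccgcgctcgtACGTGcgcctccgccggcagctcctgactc
DDIT4 (chr10:72273841-72273900, plus strand, 83 to 24 bases before the start): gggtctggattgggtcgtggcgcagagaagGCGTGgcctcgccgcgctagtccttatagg
CA9 (chr9:35673868-35673927, plus strand, 60 to 1 bases before the start): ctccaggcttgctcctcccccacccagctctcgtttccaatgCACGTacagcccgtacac
CA12 (chr15:63382037-63382096, minus strand, 250 to 191 bases before the start): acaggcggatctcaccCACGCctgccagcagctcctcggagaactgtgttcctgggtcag
LDHA (chr11:18394460-18394519, plus strand, 103 to 44 bases before the start): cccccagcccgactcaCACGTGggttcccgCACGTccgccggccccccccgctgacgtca
PDK1 (chr2:172556030-172556089, plus strand, 60 to 1 bases before the start): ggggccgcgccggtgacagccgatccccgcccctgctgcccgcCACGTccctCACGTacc
EGLN3, which was higher in MCF10A-YAP, had 1 window in the table and no HIF core in it. Of the members called, 3 of the 4 higher and 5 of the 5 lower that were matched held the core. By gene, 29 of the 34 matched members held it in at least 1 window, or 85.3%, against 47.4% of all genes of the table. That share rises with the number of windows per gene, and the 34 members had 62 windows where the 27305 genes had 35116. The share by window, 61.3% against 43.2%, does not rise in that way, but it gives more weight to genes with many windows. HK1 and PFKM had 7 windows each. None of the 9 called members that were matched had CATTCC, which 14.3% of all genes held. The paper describes YAP binding mostly at distal enhancers, which windows of 250 bases do not reach. VEGFA and BNIP3L were not matched.

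Between MCF10A-YAP and control, the 39 genes moved in both directions. Of 38 genes tested, 5 rose (ENO2, EGLN3, ADM, BNIP3 and BNIP3L), 6 fell (LDHA, PDK1, VEGFA, CA9, CA12 and DDIT4) and 27 did not pass. Calls required both an adjusted p below 0.05 in edgeR's quasi-likelihood test and a log2 fold change beyond 0.5 in either direction. The called share was 28.9% of the members and 29.4% of the 15768 genes tested, with 15.3% of all genes higher and 14.1% lower, so the list as a whole was called at the background rate. Of the 23 tested genes of glucose transport, glycolysis and lactate, 1 rose and 2 fell, and their median absolute log2 fold change was 0.25 against 0.35 over all genes. Of the 15 genes of oxygen sensing and hypoxia response, 4 rose and 4 fell, a share of 53.3%, with a median absolute log2 fold change of 0.71. Signed medians were -0.16 and -0.10, against -0.01 over all genes. Of the 23 genes of transport, glycolysis and lactate, 17 were below 0 and 6 above. With an edgeR adjusted p under 0.05 at any size, 11 of them were lower and 3 higher. Over all genes 3845 were lower and 3840 higher in that way. Of the 15 hypoxia genes, 8 were below 0 and 7 above. Of the 10 basal-like epithelial markers, 6 were called lower in MCF10A-YAP, 2 higher (KRT17 at 0.73 and EGFR at 0.66) and 2 were not called, and their part in these values was not tested. In bulk samples, fewer cells with a transcript and less of it per cell cannot be told apart.

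**Figure D1:**
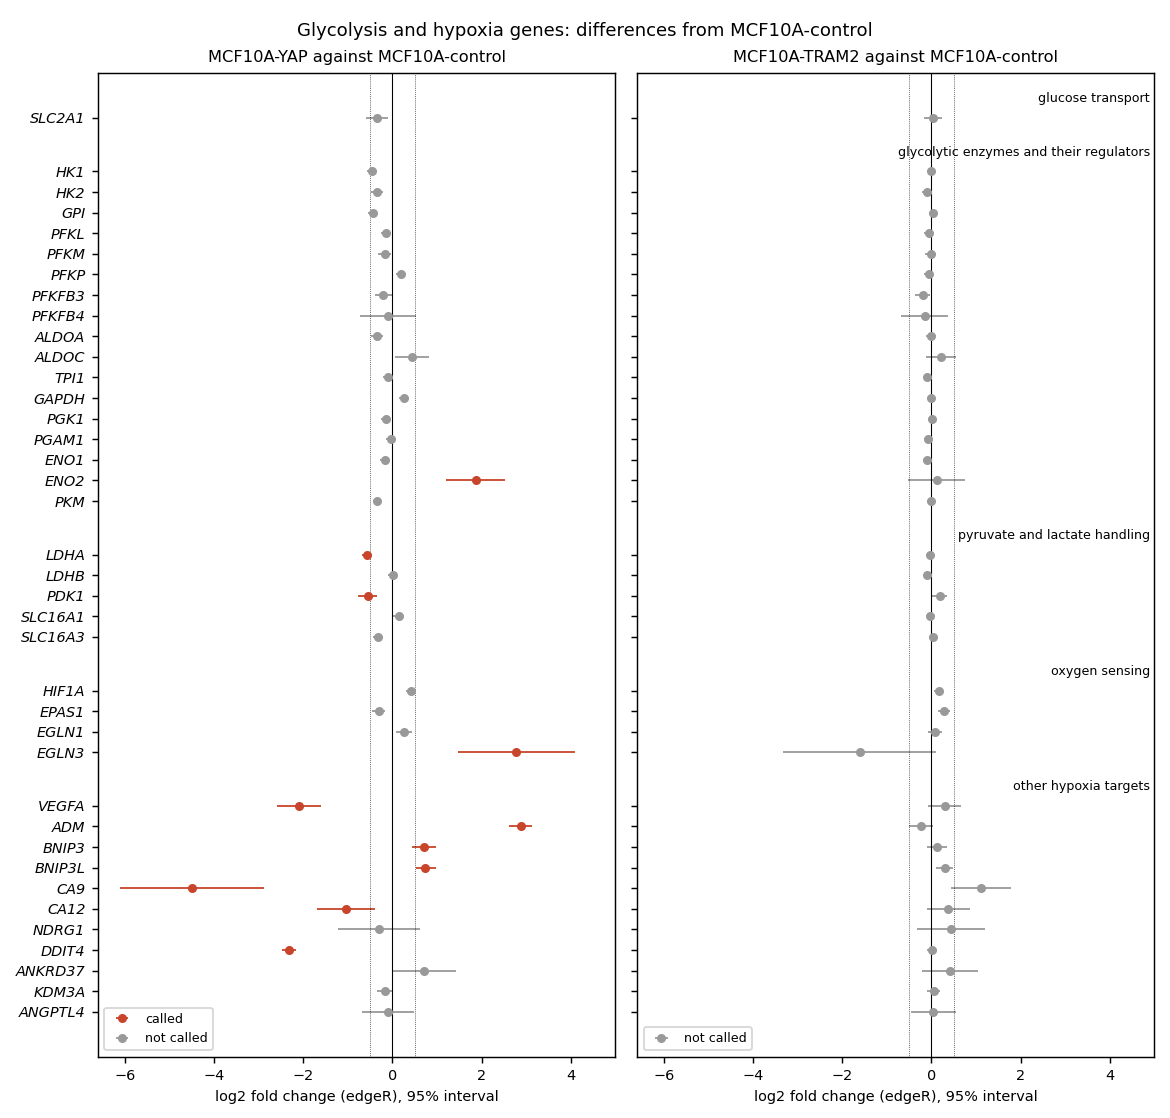
Log2 fold changes from edgeR with 95% intervals for the 38 members tested, in MCF10A-YAP (left) and MCF10A-TRAM2 (right) against MCF10A-control, ordered by role; dotted lines mark the threshold of 0.5 on the log2 scale. Among the genes of transport, glycolysis and lactate, ENO2 at 1.87, LDHA at -0.57 and PDK1 at -0.55 are called, the hypoxia targets spread from -4.50 (CA9) to 2.88 (ADM) in MCF10A-YAP, and no member is called in MCF10A-TRAM2.

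SLC2A1, which encodes the widespread glucose transporter GLUT1, was the main glucose transporter member by level. It stood at 121 and 129 CPM in control, at 110, 145, 123 and 130 CPM in MCF10A-TRAM2 A to D, and at 95.9 and 101 CPM in MCF10A-YAP. The MCF10A-YAP samples lay below all others, with a log2 fold change of -0.34 against control (standard error, SE, 0.11, edgeR adjusted p = 0.024), under the threshold on size. SLC2A3, which encodes the neuronal-type transporter GLUT3, had 1 to 11 counts per sample and was the 1 member left out by the filter on low counts. Its counts were 7 and 3 in control, 1, 3, 3 and 3 in MCF10A-TRAM2, and 4 and 11 in MCF10A-YAP. Rows of 3 SLC2A3 pseudogenes held at least 2370% as many counts as SLC2A3 itself. Reads of SLC2A3 could have been assigned to them, so its low level is uncertain.

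No gene of the upper part of glycolysis was called in MCF10A-YAP. The log2 fold changes lay below 0 except those of PFKP and ALDOC. HK1, the main hexokinase by level, stood at 287 and 300 CPM in control, at 280 to 295 CPM in MCF10A-TRAM2, and at 212 and 215 CPM in MCF10A-YAP. Its log2 fold change was -0.46 (SE 0.05, edgeR adjusted p = 2.9e-06), and it passed the threshold on size without the filter on low counts, at -0.51, and with limma on log2(TPM + 1), at -0.75. HK2, the inducible hexokinase and a HIF target, was at 52.4 and 53.9 CPM in control and at 41.9 and 41.7 CPM in MCF10A-YAP, a log2 fold change of -0.35. GPI, which isomerises glucose 6-phosphate, was at 373 and 375 CPM in control and at 280 and 274 CPM in MCF10A-YAP, a log2 fold change of -0.43. ALDOA, the main aldolase, had one of -0.35, at 721 and 723 CPM against 912 and 929 CPM. These 4 genes had adjusted p-values under 0.05 (edgeR). Among the phosphofructokinases, PFKP, the platelet-type subunit, stood at 0.20 on the log2 scale (edgeR adjusted p = 0.0075), with PFKL at -0.14 and PFKM at -0.17 and neither past the threshold on p. PFKFB3 and PFKFB4, which make the activator fructose 2,6-bisphosphate, stood at -0.20 and -0.10. ALDOC, the brain-type aldolase, stood at 0.44 (edgeR adjusted p = 0.057).

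In the lower part the directions were mixed. GAPDH, often taken as a constant reference gene, was at 2150 and 2220 CPM in control, at 2120 to 2230 CPM in MCF10A-TRAM2, and at 2600 and 2590 CPM in MCF10A-YAP. That is a log2 fold change of 0.25 (SE 0.05, edgeR adjusted p = 0.00099) under the threshold on size, although all MCF10A-YAP values lay above all others. Pyruvate kinase (PKM), the last step, went from 2300 and 2320 CPM in control to 1830 CPM in both MCF10A-YAP samples, a log2 fold change of -0.34. PGK1 at -0.14 and ENO1 at -0.16 had adjusted p-values under 0.05 (edgeR), while TPI1 at -0.10 and PGAM1 at -0.04 did not. The same libraries thus gave GAPDH and PKM, 2 enzymes of one pathway, on opposite sides of control.

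ENO2, the neuron-type enolase, was the 1 glycolytic enzyme called. It stood at 0.915 and 1.40 CPM in control, at 1.04, 1.59, 1.21 and 1.14 CPM in MCF10A-TRAM2, and at 3.78 and 4.65 CPM in MCF10A-YAP. Both MCF10A-YAP values lay above every other sample. The rise was 3.66-fold (log2 fold change 1.87, SE 0.31, edgeR adjusted p = 0.00015), and the 105 counts in MCF10A-YAP against 46 in control gave a ratio of 3.51 (95% counting interval 2.46 to 5.08). ENO1 still made up 99.8% ± 0.033 of the counts of both enolases in MCF10A-YAP (SD, n = 2). In TPM the groups overlapped. ENO2 stood at 0.661 and 1.28 TPM in control, at 0.616 to 1.53 TPM in MCF10A-TRAM2, and at 0.818 and 2.70 TPM in MCF10A-YAP. With limma on log2(TPM + 1) the log2 fold change of ENO2 was 0.41 and not called. That scale also adds 1 to a mean level of 0.970 TPM in control. The separation of the samples thus held for counts and CPM only.

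Levels of isozymes at one step were compared per length, in TPM without transcripts under 300 bases. Short non-coding transcripts above that length still weigh on TPM. HK1-209, of 314 bases, took 25.4% to 52.3% of HK1 TPM with 0.698% to 2.21% of its counts. The shares are therefore of transcripts and not of subunits. LDHA, the HIF-responsive A subunit, held 80.1% ± 0.21 of lactate dehydrogenase TPM in control (SD, n = 2), 80.6% ± 0.92 in MCF10A-TRAM2 (SD, n = 4) and 73.1% ± 0.42 in MCF10A-YAP (SD, n = 2). By counts it held 76.9% ± 0.039, 77.5% ± 0.83 and 68.9% ± 0.27. HIF1A held 76.7% ± 0.025 of the TPM of HIF1A and EPAS1 in control and 87.0% ± 0.83 in MCF10A-YAP (SD, n = 2 each), or 73.4% ± 0.078 and 82.1% ± 0.072 by counts. The non-coding transcript HIF1A-207 took 51.1% to 54.9% of HIF1A TPM. PFKP held 74.5% ± 1.4 of phosphofructokinase TPM in control and 79.7% ± 3.6 in MCF10A-YAP (67.7% ± 0.3 and 72.8% ± 0.41 by counts). HK1 held 90.7% ± 0.62 of hexokinase TPM in control and 88.4% ± 3.1 in MCF10A-YAP (84.7% ± 0.17 and 83.6% ± 0.18 by counts). ALDOA held at least 99.6% of aldolase TPM in every group. Of the TPM of the monocarboxylate transporters, SLC16A3 held 56.9% ± 2.1 in control and 47.9% ± 2.7 in MCF10A-YAP (39.6% ± 0.62 and 32.3% ± 1.7 by counts). PFKFB3 held 94.7% ± 1.8 of the TPM of PFKFB3 and PFKFB4 in control and 95.7% ± 0.89 in MCF10A-YAP (93.4% ± 0.95 and 92.9% ± 2.5 by counts). These shares are descriptions of 2 to 4 samples with no test. PKM transcripts with 1 of its pair of mutually exclusive exons, in GENCODE v44lift37, held 64.9% to 69.3% of PKM counts. Of the estimated counts of these whole transcripts, 98.5% to 99.4% lay on those with the exon of the M2 form, in all 10 libraries. Reads on the exons themselves were not counted. The M2 form is the usual one of proliferating cells.

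**Figure D2:**
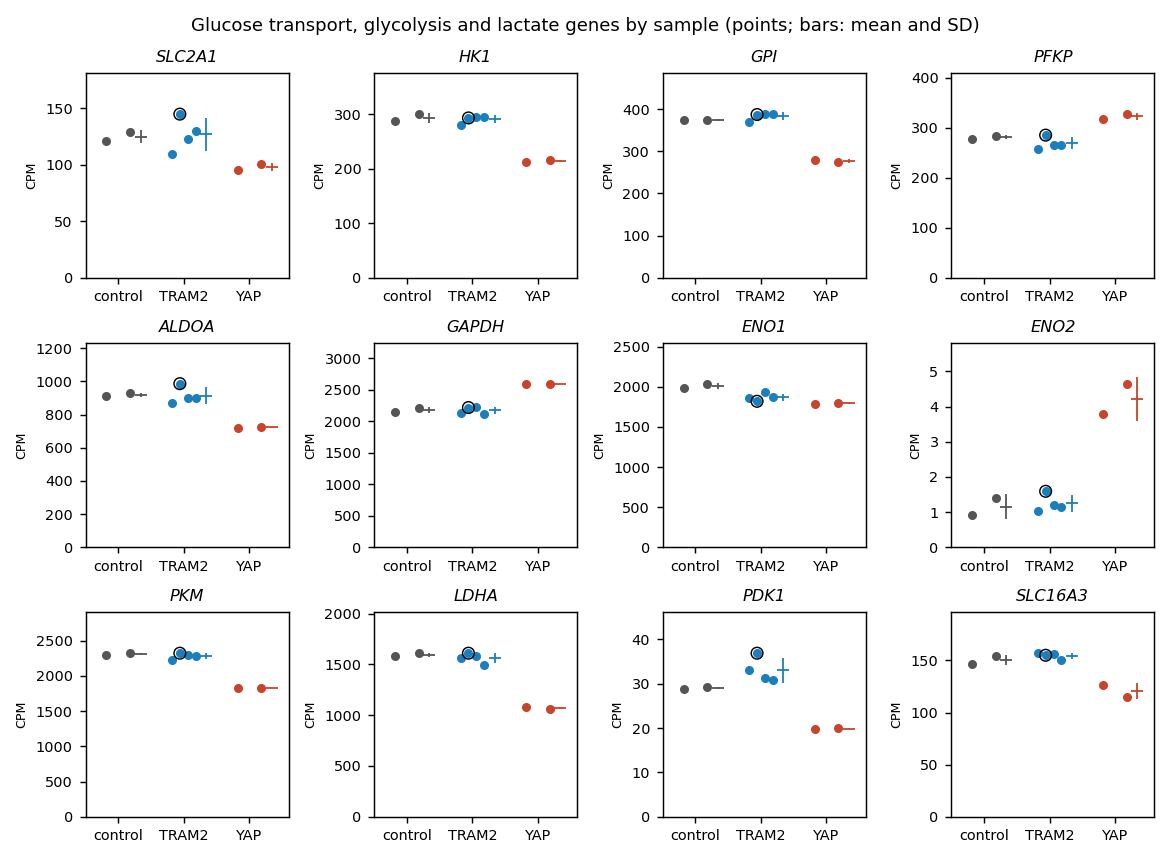
CPM by sample for 12 genes of glucose transport, glycolysis and lactate handling, with points for samples and bars for the mean and SD (n = 2 control, 4 MCF10A-TRAM2, 2 MCF10A-YAP; a ring marks MCF10A-TRAM2 B; each axis starts at 0). LDHA, PDK1, HK1, GPI, ALDOA and PKM are lower in both MCF10A-YAP samples than in all others, and GAPDH, PFKP and ENO2 are higher.

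After glycolysis, 2 genes that steer pyruvate fell in MCF10A-YAP. LDHA, the subunit that favours the making of lactate, stood at 1580 and 1610 CPM in control, at 1560, 1610, 1580 and 1490 CPM in MCF10A-TRAM2, and at 1080 and 1060 CPM in MCF10A-YAP. The drop was 1.49-fold (log2 fold change -0.57, SE 0.05, edgeR adjusted p = 4.5e-07). Rows of LDHA pseudogenes held 5.79% to 8.55% as many counts as LDHA itself, so a small part of its reads could have been assigned either way. PDK1, a kinase that shuts pyruvate dehydrogenase, stood at 28.9 and 29.3 CPM in control, at 33.0, 36.9, 31.3 and 30.8 CPM in MCF10A-TRAM2, and at 19.9 ± 0.092 CPM in MCF10A-YAP (SD, n = 2). The MCF10A-YAP samples lay below all others, and the drop was 1.46-fold (log2 fold change -0.55, SE 0.10, edgeR adjusted p = 0.00028). SLC16A3, which encodes the lactate exporter MCT4, had a log2 fold change of -0.32 (edgeR adjusted p = 0.00024) under the threshold on size. LDHB stood at 0.01 and SLC16A1, which encodes MCT1, at 0.14, and neither passed. Together the 24 genes of transport, glycolysis and lactate took 1.24% and 1.26% of all estimated counts in control, 1.21% to 1.26% in MCF10A-TRAM2, and 1.06% in both MCF10A-YAP samples.

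Of the 4 genes of oxygen sensing, EGLN3 rose in MCF10A-YAP and the other 3 were not called against control. HIF1A stood at 389 and 390 CPM in control, at 451, 446, 419 and 423 CPM in MCF10A-TRAM2, and at 526 and 515 CPM in MCF10A-YAP. EPAS1, which encodes HIF-2 alpha, stood at 141 CPM in both control samples, at 153, 183, 174 and 173 CPM in MCF10A-TRAM2, and at 115 and 112 CPM in MCF10A-YAP. The 3 groups did not overlap for either gene, HIF1A being highest and EPAS1 lowest in MCF10A-YAP. With 2 samples in a group, such separation says little by itself. NDRG1 and ANGPTL4 also did not overlap between MCF10A-YAP and control, at edgeR adjusted p = 0.56 and 0.76. Against control, HIF1A had a log2 fold change of 0.42 (SE 0.05, edgeR adjusted p = 9.4e-06) and EPAS1 one of -0.31 (SE 0.07, edgeR adjusted p = 0.0019), both under the threshold on size. Against MCF10A-TRAM2, EPAS1 was called, at -0.59 (SE 0.06, edgeR adjusted p = 1.8e-06). EGLN1, the main oxygen-sensing hydroxylase, stood at 0.26 in MCF10A-YAP against control (edgeR adjusted p = 0.018), at 69.0 and 74.6 CPM against 59.6 and 60.1 CPM. EGLN3, a hydroxylase that HIF itself induces, had 9 and 2 counts in control, 1, 0, 3 and 1 counts in MCF10A-TRAM2, and 22 and 25 counts in MCF10A-YAP. Its 47 counts in MCF10A-YAP against 11 in control gave a ratio of 6.57 (95% counting interval 3.36 to 14.1), and it was called at a log2 fold change of 2.78 (SE 0.61, edgeR adjusted p = 0.0016). The call held at 4.04 without control 1, at 2.18 without control 2 and at 0.59 with limma on log2(TPM + 1). At 1.85 and 1.94 CPM, EGLN3 remained far below EGLN1 in MCF10A-YAP on the per-length scale too, at 0.737 ± 0.12 against 21.2 ± 1.5 TPM (SD, n = 2).

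Among the other hypoxia targets, ADM rose most. It encodes adrenomedullin, a secreted vasodilator peptide, and stood at 11.6 and 12.3 CPM in control, at 8.27, 12.8, 10.1 and 9.40 CPM in MCF10A-TRAM2, and at 88.0 and 87.4 CPM in MCF10A-YAP. The rise was 7.34-fold (log2 fold change 2.88, SE 0.12, edgeR adjusted p = 6e-10). BNIP3L, an outer mitochondrial membrane receptor for mitophagy, stood at 55.4 and 56.1 CPM in control, at 63.8, 80.5, 65.7 and 64.1 CPM in MCF10A-TRAM2, and at 89.7 and 96.9 CPM in MCF10A-YAP. It rose 1.67-fold (log2 fold change 0.74, SE 0.10, edgeR adjusted p = 8.8e-05). BNIP3, its paralog with the same role, stood at 58.0 and 64.1 CPM in control, at 63.3, 78.3, 65.5 and 57.9 CPM in MCF10A-TRAM2, and at 100 and 98.2 CPM in MCF10A-YAP, a 1.63-fold rise (log2 fold change 0.70, SE 0.12, edgeR adjusted p = 0.00077). The mitophagy pair thus rose together, by nearly the same factor. For both genes the MCF10A-YAP samples lay above all others, and MCF10A-TRAM2 B was the highest of the rest.

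The 4 hypoxia targets that fell were DDIT4, VEGFA, CA9 and CA12. DDIT4, which encodes the stress-induced mTORC1 inhibitor REDD1, stood at 314 and 319 CPM in control, at 325, 289, 332 and 332 CPM in MCF10A-TRAM2, and at 65.4 and 61.2 CPM in MCF10A-YAP. The drop was 5.00-fold (log2 fold change -2.32, SE 0.07, edgeR adjusted p = 6e-12). VEGFA, the vascular endothelial growth factor, stood at 169 and 156 CPM in control, at 164, 241, 194 and 200 CPM in MCF10A-TRAM2, and at 34.3 and 41.5 CPM in MCF10A-YAP. It was 4.27-fold lower (log2 fold change -2.10, SE 0.20, edgeR adjusted p = 0.00021). The share of its counts on VEGFA-205, the transcript with the most counts, was 50.5% ± 2.1 in control (SD, n = 4 libraries of 2 samples), 47.3% ± 2.0 in MCF10A-TRAM2 (SD, n = 4) and 35.2% ± 0.28 in MCF10A-YAP (SD, n = 2), with no test.

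The cell-surface carbonic anhydrases, which help a cell hold its pH, both fell. CA9, one of the most specific HIF-1 targets, had 26 and 18 counts in control, 32, 34, 48 and 27 counts in MCF10A-TRAM2, and 0 and 1 counts in MCF10A-YAP. As a ratio of counts this is 0.035 (95% counting interval 0.000866 to 0.205, which covers counting error only), and the fitted log2 fold change was -4.50 (SE 0.75, edgeR adjusted p = 0.00018). That fitted value rests on 1 count and is no bound: it was -3.67 without MCF10A-YAP A and -7.13 without MCF10A-YAP B, and with limma on log2(TPM + 1) CA9 stood at -0.69 and was not called. CA12 had 97 and 79 counts in control, 82, 112, 77 and 68 in MCF10A-TRAM2, and 29 and 23 in MCF10A-YAP. It was 2.07-fold lower (log2 fold change -1.05, SE 0.30, edgeR adjusted p = 0.011), a call lost without control 1 (-1.01, adjusted p = 0.054) or without MCF10A-YAP B (-0.83, adjusted p = 0.12). With limma on log2(TPM + 1) CA12 stood at -0.18 and was not called. In counts and CPM every MCF10A-YAP sample lay below every other sample for both genes, but in TPM they overlapped. CA9 was at 1.77 and 0.334 TPM in control and at 0 and 0.424 TPM in MCF10A-YAP. CA12 was at 0.673 and 0.617 TPM in control and at 0.637 and 0.290 TPM in MCF10A-YAP. The remaining 4 targets were not called: NDRG1, a stress-response gene, stood at -0.30, ANKRD37 at 0.71 (edgeR adjusted p = 0.098), the histone demethylase gene KDM3A at -0.17 and ANGPTL4, an inhibitor of lipoprotein lipase, at -0.10.

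**Figure D3:**
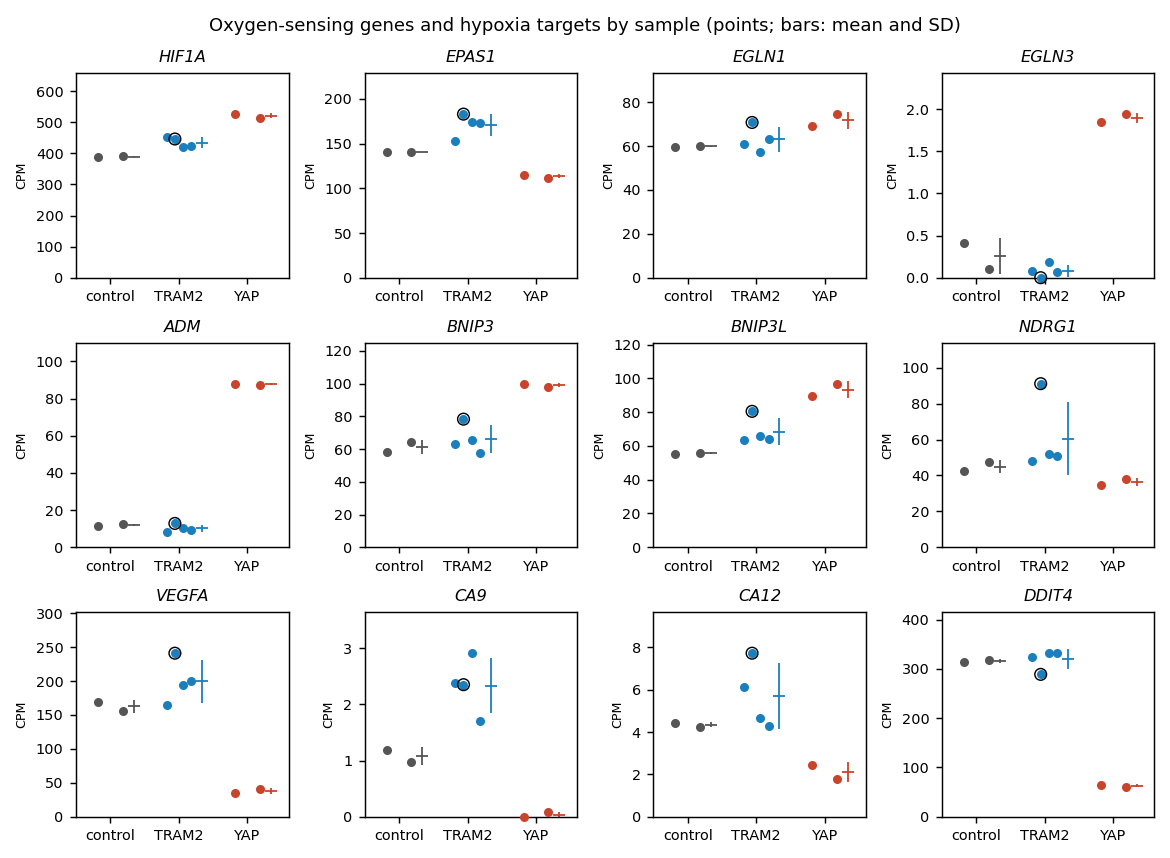
CPM by sample for the 4 oxygen-sensing genes and 8 hypoxia targets, with points for samples and bars for the mean and SD (n = 2 control, 4 MCF10A-TRAM2, 2 MCF10A-YAP; each axis starts at 0; a ring marks MCF10A-TRAM2 B). ADM, EGLN3, BNIP3 and BNIP3L are highest in the MCF10A-YAP samples, VEGFA, CA9, CA12 and DDIT4 are lowest there, and NDRG1 stands out in MCF10A-TRAM2 B at 91.2 CPM.

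Genes beside the 39 in the same pathways also moved in both directions in MCF10A-YAP. Of 40 tested further hypoxia targets, 9 rose and 6 fell, or 37.5%, with IGFBP3, which binds insulin-like growth factors, at a log2 fold change of 3.27, the repressor BHLHE41 at -5.62 and the secreted glycoprotein gene STC2 at 2.15. Of 13 tested genes of the HIF machinery, 2 rose and 1 fell. CITED2, which competes with HIF alpha for its co-activators, stood at 2.39, ARNT2, a partner of HIF alpha, at 2.06, and VHL, which carries hydroxylated HIF alpha to destruction, at -0.52. Of 13 tested genes of glycogen metabolism, 4 rose and 3 fell, with the phosphorylase gene PYGB at -1.33, the glycogenin gene GYG1 at 0.96 and the synthase gene GYS1 at 0.59. Of 15 genes of pyruvate entry into mitochondria, 3 fell and 12 did not pass. PDK4, a sister kinase of PDK1, stood at -4.20, the monocarboxylate transporter gene SLC16A7 at -1.28 and the pyruvate carboxylase gene PC at -1.52. Of 6 tested genes of the pentose phosphate pathway 1 fell, the transketolase gene TKT at -0.69. Of 10 tested further isozymes and bypass genes 4 fell, with the hexokinase-like gene HKDC1 at -3.07, the glycerol phosphate dehydrogenase gene GPD2 at -0.56 and PFKFB2 at -0.50. These counts stand beside the 29.4% of all genes called, and no test of a list was made.

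In MCF10A-TRAM2 no member was called against control by edgeR or by DESeq2. By edgeR 0.0571% of all genes were, 0.0317% higher and 0.0254% lower, and TRAM2 itself was not among them (log2 fold change 3.90, edgeR adjusted p = 0.07). At an unadjusted p under 0.05 from edgeR there were 8 of 38 members and 1987 of all 15768 genes. EPAS1, at a log2 fold change of 0.28 (95% interval 0.15 to 0.41), had an edgeR adjusted p = 0.093, HIF1A, at 0.16 (0.06 to 0.26), one of 0.16, and CA9, at 1.10 (0.43 to 1.78), one of 0.17. CA9 was called (edgeR adjusted p = 0.038) when the 10 libraries were entered as deposited. That setting counts control C and D, repeats of A and B, as separate libraries, which can make its p-value too small. Its 141 counts in MCF10A-TRAM2 against 44 in control gave a ratio of 2.16 (95% counting interval 1.53 to 3.11), and all 4 MCF10A-TRAM2 samples, at 1.70 to 2.91 CPM, lay above the control samples at 0.970 and 1.19 CPM. BNIP3L at 0.30 and PDK1 at 0.18 were higher in all 4 samples than in control, and PFKFB3 at -0.20, ENO1 at -0.10 and LDHB at -0.09 were lower in all 4, each with an unadjusted p under 0.05 (edgeR). None of the genes in the 6 further pathway lists was called either.

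In MCF10A-TRAM2 the 23 log2 fold changes of the glycolytic genes ran from -0.20 to 0.21 with a median of -0.02, and 16 of 23 were below 0. The 15 hypoxia genes had a median of 0.16, with 13 of 15 above 0. Over all 15768 genes the median was -0.00, with 7843 above 0 and 7911 below. Without MCF10A-TRAM2 B the median of the hypoxia genes was 0.15 with 12 of 15 above 0. MCF10A-TRAM2 B was the highest of the 4 samples for 11 of the 15 hypoxia genes and 12 of the 23 glycolytic genes, and its median log2 ratio to the control mean over the hypoxia genes was 0.38, against 0.09, 0.10 and 0.08 in A, C and D. NDRG1 stood at 48.3, 91.2, 52.1 and 50.6 CPM in A to D, and at 42.3 and 47.4 CPM in control. ANGPTL4 stood at 209, 333, 237 and 218 CPM, and at 242 CPM in both control samples. B thus lay above both control samples for both genes, whereas A, C and D lay below them for ANGPTL4. TRAM2 itself was also highest in B, at 611 CPM, and its part in these values was not tested.

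The labels name no sequencing run, but run numbers in the names of the deposited data separate A and B of each group (the first run) from C with D (the second), with MCF10A-YAP in the first only. No member differed between MCF10A-TRAM2 A and B and MCF10A-TRAM2 C and D, each against the control libraries of its run, where 0.0129% of all genes did. That log2 difference, of A and B from C and D, was -0.04 for EPAS1 (SE 0.09, edgeR adjusted p = 0.99), 0.08 for HIF1A (SE 0.06, edgeR adjusted p = 0.94), 0.41 for CA9 (SE 0.59, edgeR adjusted p = 0.97) and 0.37 for NDRG1 (SE 0.45, edgeR adjusted p = 0.96). Its SE and p-values count control C and D, repeats of A and B, as separate libraries. With the control pairs summed it was -0.04, 0.09, 0.03 and 0.45. The MCF10A-TRAM2 samples also differ between the runs, so run and sample cannot be told apart. With the first run alone, 11 members were called in MCF10A-YAP against control, as in the full comparison.

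Set directly against MCF10A-TRAM2, MCF10A-YAP had 4 members higher and 7 lower, where 29.4% of all genes were called, 14.9% higher and 14.6% lower. Both comparisons share the MCF10A-YAP samples. ENO2 stood at 1.76, EGLN3 at 4.39, ADM at 3.11 and BNIP3 at 0.58 on the log2 scale. Lower were LDHA at -0.54, PDK1 at -0.73, EPAS1 at -0.59, VEGFA at -2.39, CA9 at -5.60, CA12 at -1.43 and DDIT4 at -2.34. BNIP3L, at 0.45 (edgeR adjusted p = 0.0012), did not reach the threshold on size, and did so without MCF10A-TRAM2 B, at 0.53, or without MCF10A-YAP A, at 0.51. BNIP3 stood at 0.48, under that threshold, in the first run alone.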

How the data were processed

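mRNA libraries of MCF10A-control (4), MCF10A-TRAM2 (4) and MCF10A-YAP (2) were analysed. The authors removed adapters with cutadapt and quantified transcripts with Salmon; the sources used here do not state versions, index, strand setting or genome build, so reads of an antisense or overlapping gene cannot be told apart. A TruSeq RNA kit is named in the labels and a stranded kit in the study's methods. The authors deposited an estimated count, often fractional, and a TPM value for each of 226030 transcripts and each library, along with effective lengths that were not used.

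The deposited estimated counts were summed over 60168 gene IDs and rounded. Pairs of libraries in a group were compared by chi-square over genes averaging 50 counts or more that were within 0.001 of whole numbers in all 10 libraries, and control A with C and B with D were summed. Libraries held 8489854 to 16314438 counts. Genes passing filterByExpr (15768) were normalized by TMM and tested in 1 fit of the 8 samples with edgeR 4.0.16 (robust glmQLFit, then glmQLFTest) in R 4.3.3, with Benjamini-Hochberg adjustment over all of them. Alternatives used DESeq2 1.42.0 and limma 3.58.1 on log2(TPM + 1). Counting intervals are exact, at 95%, and cover counting error only. TPM levels leave out transcripts under 300 bases, because 1 such transcript took 78.4% to 83.8% of the TPM of LDHA. The edgeR fit of MCF10A-YAP against control was tried on simulated counts with known changes. Every simulated gene had the same dispersion, which genes of these samples need not share, and MCF10A-TRAM2 was not covered.

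Members and lists were chosen with earlier results of these data known. By the rule for named genes, sample values were to be given for up to 4 called members per role with the smallest adjusted p; the sample values of VEGFA, BNIP3, CA12 and of members not called were added after their values were seen. Each further list is shown by up to 3 called genes with the smallest adjusted p. The promoter search and the PKM and VEGFA transcript shares were also added with results in view.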

Additional observations from a re-analysis of the deposited data

Results flagged for a closer look

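In 6 of 37 members examined, 1 of the 4 MCF10A-TRAM2 samples lay far from the other 3: its gap to the nearest sample, divided by the range of log2 CPM, was above Dixon's 95% critical value for 4 samples, which chance passes in about 1 group in 20. MCF10A-TRAM2 B was far above the others for the mitophagy receptor gene BNIP3L (0.876) and for NDRG1 (0.879), and far below them for DDIT4 (0.846), at 289 CPM against 325 to 332 CPM. MCF10A-TRAM2 A was below the others for HK1 (0.893), at 280 CPM against 293 to 295 CPM, and for GPI (0.923), at 370 CPM against 387 and 388 CPM, and above them for SLC16A1 (0.916), at 243 CPM against 219 to 221 CPM. NDRG1, at 48.3 to 91.2 CPM, had the widest range of these 6 as a ratio.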

How the results depend on the processing

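No log2 fold change of a member changed its called direction under any alternative. Members called in MCF10A-YAP against control numbered 11, and 9 to 12 under the alternatives (10 to 11 when 1 sample was left out, with the lone sample of a group then assumed to vary like the others). The gains and losses under limma on log2(TPM + 1) were ENO2 (0.41), PDK1 (-0.49), CA9 (-0.69) and CA12 (-0.18) lost, and HK1 (-0.75) and EPAS1 (-0.61) gained; the values were the same without transcripts under 300 bases, an alternative chosen after seeing the data. The count of MCF10A-TRAM2 members was 0 except with the 10 libraries as deposited, where it was 1 (CA9). All genes called in MCF10A-TRAM2, 9 in the fit reported, depended on the setting: 67 with the 10 libraries as deposited, 19 with DESeq2, 133 with no filter on low counts, 25 in the first run, 97 in the second, 1 with limma on log2(TPM + 1) and 0 without short transcripts, and 3 to 38 when 1 sample was left out (3 without control 2, 19 without MCF10A-TRAM2 A, 38 without MCF10A-TRAM2 B); the cause was not tested. With the replicate block on the 10 libraries the counts of members were 11, 0 and 12 and of all genes called in MCF10A-TRAM2 69; same-letter samples of different groups deviated with correlations of -0.026 to 0.035, so the letters were not taken to pair them. NDRG1 was called in MCF10A-YAP against MCF10A-TRAM2 under that replicate block, at -0.84. The share of VEGFA-205 differed between MCF10A-YAP and control by -15.3 percentage points by counts and by -2.7 by TPM. The 6 members under 5 CPM in every sample (SLC2A3, PFKFB4, ENO2, EGLN3, CA9 and ANKRD37) are the most limited by depth.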
